A study of Drosophila melanogaster with 20 samples.

Results

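The genes described are 9 components of insulin signalling, taken by symbol from a table of 9831 genes measured in heads of adult male Drosophila melanogaster: the insulin-like peptide genes Ilp2, Ilp3, Ilp5 and Ilp6, the gene of the secreted binding protein ImpL2, the receptor gene InR, the substrate gene chico, the transcription factor gene foxo and its target Thor. All 9 symbols were found in the table. They lie on chromosome arms 2L (chico and Thor), 3L (Ilp2, Ilp3, Ilp5 and ImpL2), 3R (InR and foxo) and X (Ilp6). PolyA RNA from pools of 25 to 30 heads was sequenced in 20 libraries, to compare ageing in the wild type and in a mutant of chm (chameau), which encodes an acetyltransferase of the MYST family. The wild type, written wt, was sampled young at 7 days (n = 5) and at midlife, at 22 to 23 days (n = 4), and chm/+ flies, with 1 mutant copy, at the same ages (n = 6 young and n = 5 midlife). All males came from populations holding both sexes. The labels name neither the chm allele nor the wild-type strain, and nothing says whether libraries came from separate cultures, so p-values measure the spread between libraries, which may be technical.

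In flies, insulin-like peptides are hormones that bind the receptor InR, which acts through the substrate chico and phosphoinositide 3-kinase to activate Akt. Akt phosphorylates the transcription factor foxo and keeps it out of the nucleus. When insulin signalling is low, foxo enters the nucleus and turns on genes that include Thor and InR itself. The median neurosecretory cells of the brain, a small cluster of insulin-producing cells, make the peptides of Ilp2, Ilp3 and Ilp5, and the fat body is the main source of Ilp6 peptide. Lower activity of this pathway lengthens life in flies, worms and mice.

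Values are normalized counts, which the authors scaled to a common library size. Each library is one column of the table, and its name gives its group: 2uy for young wt, 2uo for midlife wt, CHMy for young chm/+ and CHMo for midlife chm/+. The level of chm itself was 571 to 678 in the 9 wt libraries and 283 to 364 in the 11 chm/+ libraries, a log2 difference of -0.91 in young and -0.84 in midlife heads (limma adjusted p = 9.96e-08 and 8.05e-07). Libraries in the first 10 and the last 10 columns of the table lay on opposite sides of the leading axis of the variation left after group means were removed, which held 47.0% of it, except that 2uo2, of the last 10, lay among the first 10. What these sets are is not stated. Both sets hold all 4 groups.

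Midlife heads held less mRNA of 2 of the 3 brain insulin-like peptide genes, and more of InR and Thor, than young heads of the same genotype. In wt, Ilp3 fell to 0.365 times and Ilp5 to 0.498 times the young level, while InR rose 1.70-fold and Thor 1.66-fold. In chm/+, Ilp3 fell to 0.319 times and Ilp5 to 0.524 times, while InR rose 1.76-fold and Thor 1.64-fold. Ilp2, the most abundant of the peptide transcripts, did not pass the test in either genotype. No member differed between chm/+ and wt past the threshold, at either age.

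**Figure D1:**
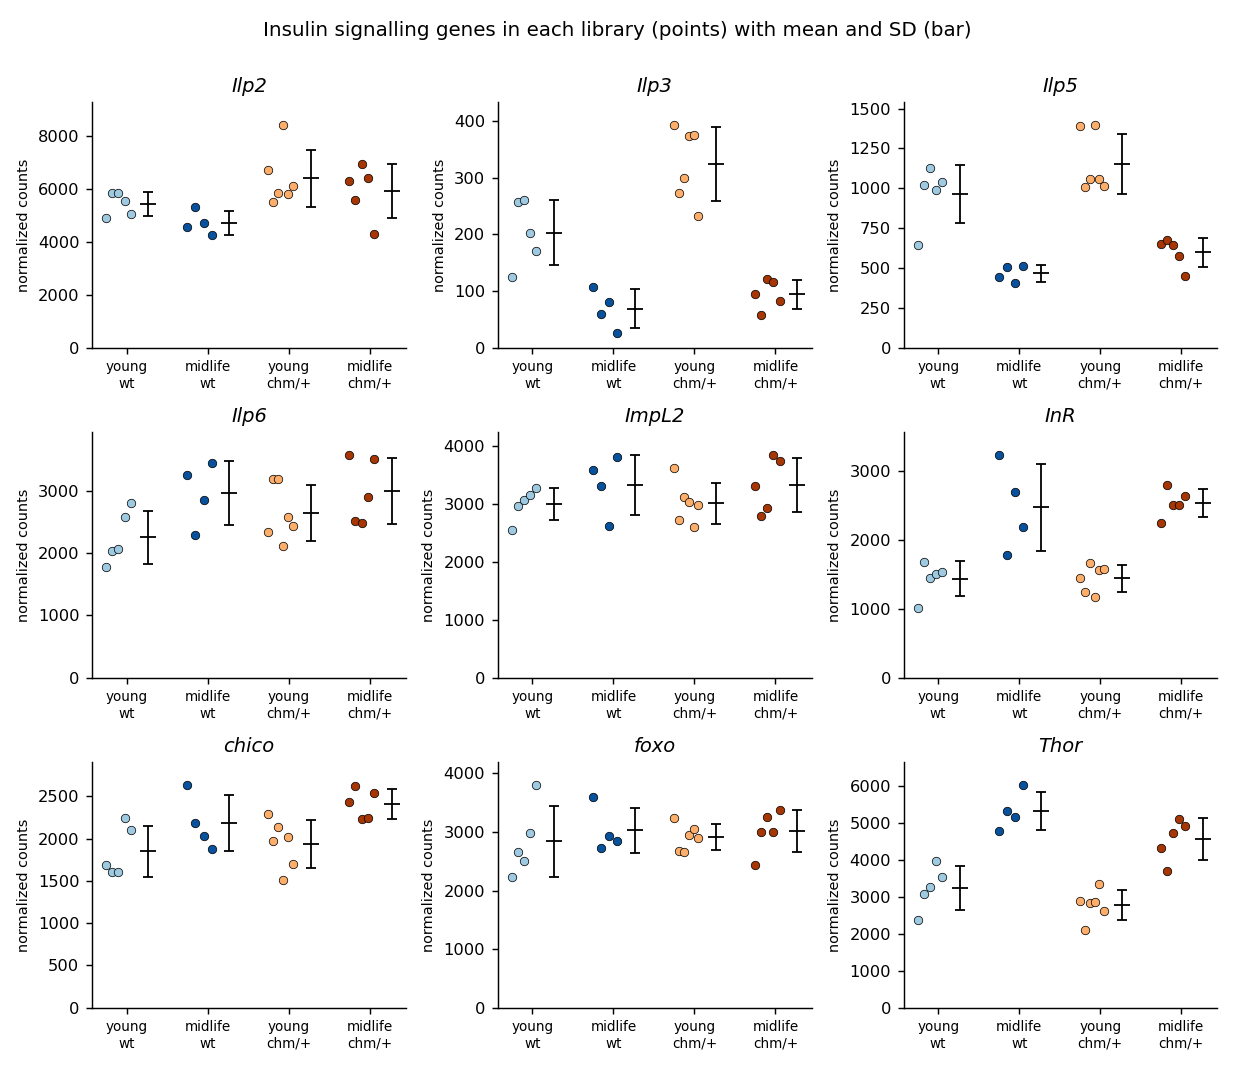
Normalized counts (vertical axes, starting at 0) of the 9 insulin signalling genes in each of the 20 libraries, by age and genotype; points are libraries, and bars give the mean and SD of each group. In Ilp3, Ilp5, InR and Thor the young and midlife libraries of a genotype do not overlap.

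Ilp3 encodes one of the brain peptides and was the least abundant of the peptide transcripts named above. In young wt libraries it stood at 124, 171, 202, 257 and 261 normalized counts, and in midlife wt libraries at 26.1, 59.5, 81.4 and 107. In chm/+, the young libraries ran from 233 through a median of 336 to 393, and the midlife libraries were at 57.5, 83.0, 95.1, 115.0 and 122. Every midlife library was below every young library, in each genotype and across both. The log2 change with age was -1.45 ± 0.27 (SE) in wt, with a 95% interval of -2.02 to -0.89 (limma, adjusted p = 0.000606), and -1.65 ± 0.24 in chm/+, with an interval of -2.16 to -1.14 (adjusted p = 0.000106). A fold change on this scale, log2(value + 14.5), understates the change of a gene as low as Ilp3. The group means were 203 ± 57.9 (SD, n = 5) in young and 68.6 ± 34.4 (SD, n = 4) in midlife wt heads, and 325 ± 65.6 (SD, n = 6) and 94.4 ± 25.8 (SD, n = 5) in chm/+ heads.

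Ilp5, made by the same brain cells and known to respond to feeding, had young wt values of 646, 989.8, 1019, 1039 and 1125 and midlife wt values of 404, 443, 506 and 515. The young chm/+ libraries ran from 1011 through a median of 1056 to 1399, and the midlife chm/+ libraries were at 448, 575, 646, 648 and 672. Within each genotype all young libraries were above all midlife libraries. The young wt library 2uy1, at 646, lay far below the other 4 of its group and below 3 midlife chm/+ libraries. Ilp5 fell by 1.00 ± 0.15 (SE) on the log2 scale in wt, with an interval of -1.32 to -0.69 (limma, adjusted p = 8.89e-05). The change in chm/+ was -0.93 ± 0.14, with an interval of -1.22 to -0.64 (adjusted p = 0.000106). Group means were 964 ± 185 (SD, n = 5) and 467 ± 52.9 (SD, n = 4) in young and midlife wt heads, and 1154 ± 188 (SD, n = 6) and 598 ± 91.5 (SD, n = 5) in chm/+ heads. In whole heads, fewer cells of a type and less RNA per cell cannot be told apart.

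Ilp2, the third peptide gene of these cells, did not show such a difference. Its young wt values were 4899.7, 5065, 5558, 5869 and 5872, and its midlife wt values 4274, 4575, 4736 and 5328. In chm/+ it ran from 5518 through a median of 5983 to 8445 in young heads, and stood at 4319.9, 5578, 6297, 6441 and 6957 at midlife. The age groups overlapped in both genotypes. The log2 changes were -0.21 ± 0.13 (SE) in wt, with an interval of -0.48 to 0.07 (limma, adjusted p = 0.290), and -0.12 ± 0.12 in chm/+, with an interval of -0.37 to 0.13 (adjusted p = 0.587). Both intervals leave out the sizes seen for Ilp3 and Ilp5.

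Because the 3 transcripts come mainly from the same cells, their ratios within a library were also taken, a comparison chosen after the data were seen. The ratio is of normalized counts and not per length, so only its differences between libraries are read. Ilp3 was at 2.54% to 4.44% of Ilp2 in young wt and at 0.610% to 2.35% in midlife wt libraries. In chm/+ it was at 3.80% to 6.44% in young and at 1.03% to 1.92% in midlife libraries. Young and midlife libraries did not overlap in either genotype. The log2 ratio differed by -1.48 in wt and by -1.68 in chm/+ (two-sided exact permutation p = 0.0159 and 0.00433, the smallest that 5 against 4 and 6 against 5 libraries allow; adjusted over 8 ratio tests, 0.0317 and 0.0173). Ilp5 was at 13.2% to 20.5% of Ilp2 in young wt and 8.53% to 12.05% in midlife wt libraries. In chm/+ libraries it was at 16.6% to 20.7% when young and 8.93% to 12.1% at midlife. The log2 ratio of Ilp5 to Ilp2 differed by -0.82 in wt and by -0.83 in chm/+, with the same exact permutation p-values as for Ilp3.

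**Figure D2:**
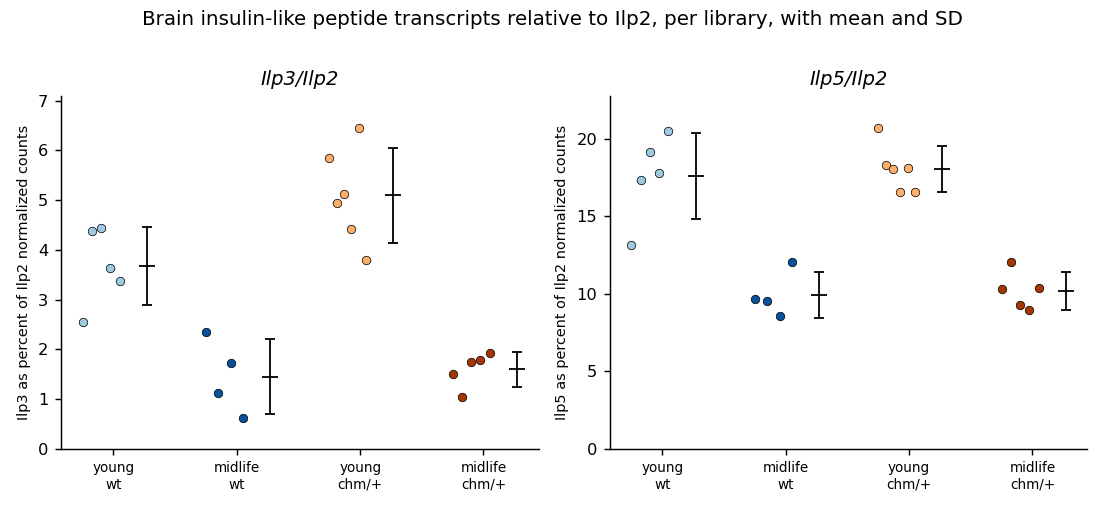
Ilp3 and Ilp5 as a percentage of Ilp2 normalized counts in the same library (vertical axes, starting at 0), by age and genotype; points are the 20 libraries, bars the mean and SD of a group. The highest midlife value is 2.35% for Ilp3 and 12.1% for Ilp5, and the lowest young value 2.54% and 13.2%.

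Genes of peptide-secreting neurons were read beside these values. Of 6 genes of the neuropeptide processing and release machinery, dimm, Phm, amon, svr, Pal2 and Cadps, none was called in either age comparison. Dsk, a peptide that the insulin-producing cells also make, changed by -0.25 on the log2 scale in wt (limma, adjusted p = 0.106) and by -0.18 in chm/+ (adjusted p = 0.253). The summed level of 9 neurosecretory peptide genes, Dsk among them, had group medians of 29380.4 and 29787 in young and midlife wt heads. In chm/+ heads these medians were 29572 and 29866. Of the 9, Ms alone was called, and it rose in both genotypes, by 0.36 and 0.38. Ms was also the most abundant of the 9, so its rise weighs on the sum. The median log2 change of the 9 genes was -0.15 in wt and -0.04 in chm/+, against -0.02 and -0.01 over all genes. The summed level of 6 general neuron markers had medians of 125242 and 95399 in young and midlife wt heads and of 136974 and 107182 in chm/+ heads, and its part in the fall of Ilp3 and Ilp5 was not tested.

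Ilp6 encodes a peptide made mainly by the fat body. It stood at 1786, 2029, 2072, 2579 and 2808 in young wt and at 2285, 2851, 3259 and 3449 in midlife wt libraries. In chm/+ it ran from 2109.8 through a median of 2504 to 3196 in young heads and was at 2483, 2514, 2903, 3509.8 and 3583 at midlife. The groups overlapped, and neither change passed the threshold: 0.39 ± 0.16 (SE) on the log2 scale in wt (limma, adjusted p = 0.0848) and 0.18 ± 0.15 in chm/+ (adjusted p = 0.476). The change in wt depended on the libraries: it was called without 2uo2 (0.51, adjusted p = 0.0357), without 2uy5 (0.48, adjusted p = 0.0401) and within the first 10 columns (0.68, adjusted p = 0.0022), and was 0.020 within the last 10 (adjusted p = 0.967). The mean of Ilp6 was higher at midlife in both genotypes, where those of Ilp3 and Ilp5 were lower. Summed levels of 8 measured genes of the head fat body list had medians of 376573 and 303032 in young and midlife wt heads. In chm/+ heads these medians were 588373 and 478714. Most of the sum is Lsp2 and Rfabg (apolpp), which reached 487464 and 384526 in single libraries. The median log2 change of the 8 genes was 0.33 in wt, with 1 called higher (bmm, also listed below as a foxo target). It was 0.25 in chm/+, with 1 called higher (bmm again) and 1 lower. Their part in the values of Ilp6 was not tested.

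ImpL2 encodes a secreted protein that binds insulin-like peptides and lowers signalling. It stood at 2555, 2963, 3069, 3154 and 3275 in young wt and at 2612, 3305, 3589 and 3805 in midlife wt libraries. The chm/+ libraries ran from 2602 through a median of 3005 to 3620.2 when young and were at 2795, 2931, 3310.2, 3739 and 3853 at midlife. The age groups overlapped in both genotypes. The log2 change was 0.14 in each genotype (SE 0.12 in wt and 0.11 in chm/+; limma, adjusted p = 0.466 in both). In a later annotation 61.9% of the exon length of ImpL2 is shared with CG46460 on the same strand, so its value may include reads of that gene.

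InR, the receptor, was higher at midlife in both genotypes. Its young wt values were 1005, 1453, 1506, 1535 and 1685, and its midlife wt values 1780.5, 2181, 2694 and 3235. In chm/+ it ran from 1166 through a median of 1505 to 1660.3 in young heads and was at 2244, 2501, 2504, 2642 and 2797 at midlife. No young library of either genotype reached the lowest midlife value. The midlife wt libraries were spread more widely, with an SD of 631 (n = 4), than the midlife chm/+ libraries, with an SD of 204 (n = 5); that difference in spread was not tested. InR rose by 0.76 ± 0.16 (SE) on the log2 scale in wt, with an interval of 0.43 to 1.09 (limma, adjusted p = 0.00146), and by 0.82 ± 0.14 in chm/+, with an interval of 0.52 to 1.11 (adjusted p = 0.000481).

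chico encodes the insulin receptor substrate, the adaptor that links InR to phosphoinositide 3-kinase. It stood at 1604, 1610.1, 1683, 2102 and 2244 in young wt and at 1880.4, 2031, 2184 and 2638 in midlife wt libraries. Libraries of chm/+ ran from 1506 through a median of 1999 to 2288 when young and were at 2233, 2238, 2429, 2535 and 2620.4 at midlife. In chm/+ 1 young library overlapped the midlife range, and in wt 2 did. The log2 changes were 0.24 ± 0.13 (SE) in wt, with an adjusted p of 0.193, and 0.32 ± 0.11 in chm/+, with an adjusted p of 0.0632 (limma). With a term for the column set both were called, at 0.21 in wt (adjusted p = 0.0474) and 0.29 in chm/+ (adjusted p = 0.00548). The change in chm/+ was also called within the first 10 columns (0.37, adjusted p = 0.0367) and without 2uo1, 2uy4 or CHMy1 (adjusted p = 0.0480, 0.0495 and 0.0352).

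foxo encodes the transcription factor at the end of the pathway, whose activity is set largely by where its protein lies in the cell, which mRNA does not report. It stood at 2234, 2509, 2664, 2984 and 3808 in young wt and at 2729, 2848, 2936 and 3598 in midlife wt libraries. In young chm/+ heads it ran from 2656 through a median of 2924 to 3236, and it was at 2445, 3003, 3005, 3264 and 3383 at midlife. The widest range of the 4 groups was that of young wt, set by library 2uy5 at 3808 and 2uy1 at 2234. The log2 changes were 0.11 ± 0.13 (SE) in wt and 0.05 ± 0.11 in chm/+ (limma, adjusted p = 0.608 and 0.862), and their intervals, -0.16 to 0.37 and -0.19 to 0.29, leave out changes as large as those of InR and Thor.

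Thor encodes 4E-BP, which binds the cap-binding factor eIF4E and restrains translation; it is turned on by foxo, and its protein is inactivated by the TOR kinase. It stood at 2373, 3087, 3271, 3550.4 and 3985 in young wt and at 4804, 5170.0, 5326 and 6046 in midlife wt libraries. In chm/+ it ran from 2099 through a median of 2856 to 3348 in young heads and was at 3700.0, 4334, 4749.6, 4936 and 5118 at midlife. Within each genotype every midlife library was above every young library, and across genotypes the lowest midlife chm/+ library lay below the highest young wt library. Thor rose by 0.73 ± 0.14 (SE) on the log2 scale in wt, with an interval of 0.44 to 1.02 (limma, adjusted p = 0.000765), and by 0.72 ± 0.13 in chm/+, with an interval of 0.46 to 0.98 (adjusted p = 0.000493).

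Counted together, 4 of the 9 genes were called in wt, InR and Thor higher and Ilp3 and Ilp5 lower at midlife, where 23.7% of all genes tested were called, 12.4% higher and 11.3% lower. The same 4 genes were called in chm/+, where 16.0% of all genes were called, 8.63% higher and 7.36% lower. The 4 were also the members whose young and midlife libraries did not overlap, beside 20.2% of all genes in wt and 8.99% in chm/+. The median size of the log2 change over the 9 genes was 0.39 in wt and 0.32 in chm/+, against 0.17 and 0.13 over all genes. When the changes of both genotypes were averaged, a contrast added after the data were seen, chico (0.28 ± 0.09, SE) and Ilp6 (0.29 ± 0.11) were called as well (limma, adjusted p = 0.0149 and 0.0467), where 33.5% of all genes were called.

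The 4 calls in each genotype were kept when any single library was left out. Taken within the first 10 columns alone, the wt log2 changes were -1.81 for Ilp3, -0.97 for Ilp5, 0.84 for InR and 0.95 for Thor, and all 4 were called. Within the last 10 columns, with 2 wt libraries at each age, they were -1.08, -1.08, 0.65 and 0.43, and Ilp5 alone was called (limma, adjusted p = 0.0560 for Ilp3, 0.0228 for Ilp5, 0.150 for InR and 0.204 for Thor). In chm/+ the same 4 changes were -1.33, -0.89, 0.81 and 0.75 within the first 10 columns and -1.86, -0.96, 0.82 and 0.73 within the last 10, and all 4 were called in both. Thor in wt was thus 0.95 in one set and 0.43 in the other, a difference that was not tested.

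**Figure D3:**
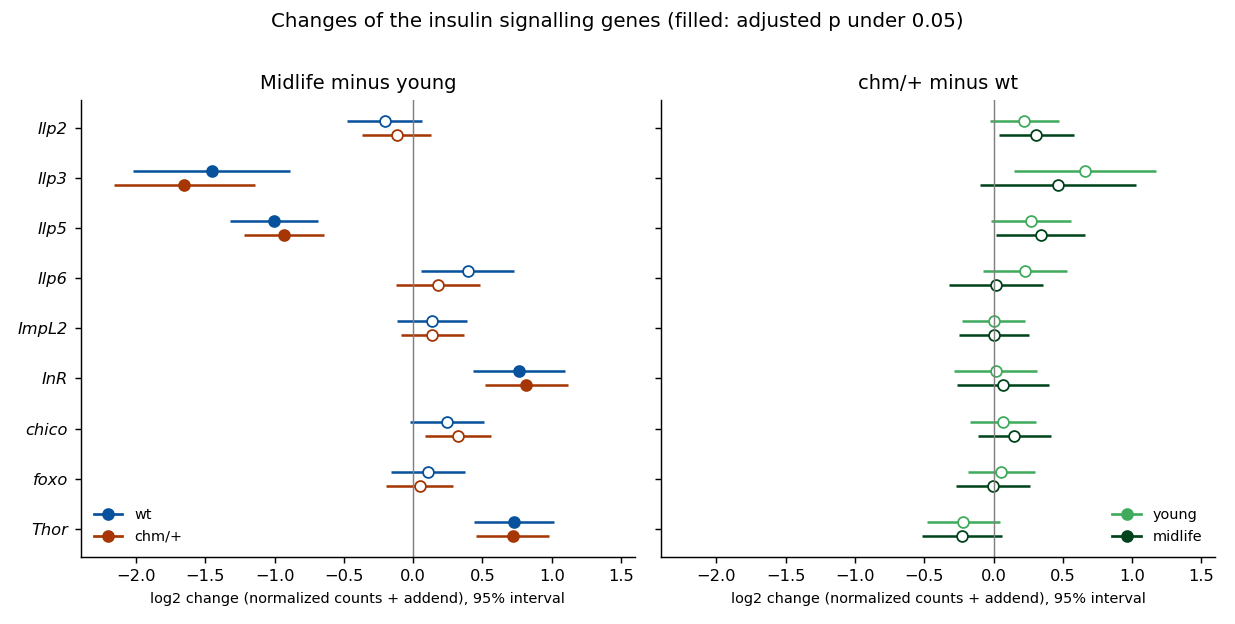
Log2 changes of the 9 genes with their 95% intervals (horizontal axes; log2 of normalized counts plus the addend) from young to midlife in each genotype (left) and from wt to chm/+ at each age (right), from the limma model on 20 libraries. Filled points passed an adjusted p under 0.05: Ilp3, Ilp5, InR and Thor on the left in both genotypes, and no gene on the right.

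Whether ageing moved these genes differently in chm/+ was tested as the difference between the 2 changes. None of the 9 genes was called, where 0.356% of all genes were called, and none had an unadjusted p under 0.05, where 6.66% of all genes did (limma). The difference was -0.20 ± 0.36 (SE) on the log2 scale for Ilp3, with an interval of -0.96 to 0.57. It was 0.07 ± 0.21 for Ilp5, 0.05 ± 0.21 for InR and -0.01 ± 0.19 for Thor, with intervals of -0.36 to 0.50, -0.39 to 0.50 and -0.40 to 0.38. True differences anywhere within these intervals, widest for Ilp3, remain compatible with these libraries. Over all 9 genes the estimates ran from -0.21 to 0.09, and the lowest adjusted p was 0.956.

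Between genotypes at the same age, none of the 9 genes was called in young heads, where 1.45% of all genes were called, and none in midlife heads, where 1.95% were. At an unadjusted p under 0.05 there was 1 gene in young heads, Ilp3, and there were 2 in midlife heads, Ilp2 and Ilp5 (limma), beside 15.3% and 13.3% of all genes, so these counts are no result about the members. All 3 brain peptide genes had higher means in chm/+ at both ages. For Ilp3 the log2 difference was 0.66 ± 0.24 (SE) in young heads, with an interval of 0.15 to 1.17 (adjusted p = 0.204), and 0.47 ± 0.27 in midlife heads (adjusted p = 0.458). In young heads 5 of the 6 chm/+ libraries were above the highest wt library, at 261. The differences for Ilp2 were 0.22 in young and 0.31 in midlife heads (adjusted p = 0.374 and 0.311). Those for Ilp5 were 0.27 and 0.34 (adjusted p = 0.365 and 0.342).

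Thor had the opposite sign, at -0.22 in young and -0.23 in midlife heads (adjusted p = 0.413 and 0.473). All 9 genes overlapped between genotypes at both ages, while 2.77% of all genes did not overlap in young and 4.48% did not in midlife heads. The log2 ratio of Ilp3 to Ilp2 was higher in young chm/+ than in young wt heads by 0.48 (two-sided exact permutation p = 0.0260, adjusted over 8 ratio tests 0.0416). Without the wt library 2uy1 this difference was 0.35, with an exact permutation p of 0.0571, and p was also above 0.05 without 2uy4 or 2uy5. At midlife the ratio differed by 0.28 (exact permutation p = 0.508), and the ratio of Ilp5 to Ilp2 by 0.05 in young and 0.04 in midlife heads.

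Levels of different genes were compared per kilobase of exon, with exon lengths from a later annotation, since the one the authors counted on is not given in the sources used here. Over the 20 libraries Ilp2 had 8527 normalized counts per kb and Thor 5108. Ilp5 (1737), ImpL2 (1182) and Ilp6 (1118) followed, then foxo (713), chico (582), Ilp3 (247) and InR (169). This order, over all libraries, was not that of every group. Young wt heads had 8139 per kb for Ilp2 and 4309 for Thor, and midlife wt heads 7057 and 7068. In midlife wt heads Ilp5 (977) was below ImpL2 (1248) and Ilp6 (1227). Ilp3 was above InR in young heads and below it at midlife, at 91.3 against 218 in wt and 126 against 223 in chm/+. ImpL2 and Ilp6 lay closer to each other than the spread between libraries of a group. By mean normalized count, without regard to length, Ilp2 was above 90.1% of the genes of the table and Ilp3 above 20.3%.

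Libraries of a group differed most in Ilp3. Its SD within groups was 0.44 on the log2 scale, higher than that of 94.0% of all genes, while those of the other 8 genes were 0.19 for ImpL2 to 0.25 for Ilp6. The library 2uy1 was the lowest of the young wt group for every member except chico. With group means removed, Ilp2 and Ilp5 varied together over the 20 libraries (Pearson r = 0.67, permutation p = 0.0027; Spearman rho = 0.55, permutation p = 0.0198). Adjusted over the 36 pairs of members, these were 0.0972 and 0.216. Without CHMy2 and CHMo5, the libraries farthest from the median of Ilp2, r was 0.52. Within the first and the last 10 columns it was 0.70 and 0.89. For Ilp2 with Ilp3, r was 0.48 (permutation p = 0.0239, adjusted 0.266; rho = 0.63), and within the 2 sets 0.56 and 0.07. No pair passed the adjustment.

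With group means but not the column sets removed, the genes of the whole table whose levels followed each member most closely were found. These are the genes with the highest Pearson r over 20 libraries, as a description, and no r was taken within a column set. For Ilp2 they were CG14823 (r = 0.89), CG17221 (0.85) and the neuropeptide gene Trissin (0.84). For Ilp3 they were CG9194 (0.81), the peptidoglycan receptor gene PGRP-LC (0.76) and CG16756 (0.74), and for Ilp5 Cyp309a1 (0.79), CG18180 and CG8191 (both 0.72). The highest were those of chico, with Klp31E (0.95), CG13793 and CG4996 (both 0.94), of Ilp6, with CR42868 (0.93), CG8046 (0.92) and CG17124 (0.91), and of InR, with Su(Tpl) (0.93), eag and CadN (both 0.89). For foxo they were Lsd-2 (0.85), a lipid droplet protein gene, dsx and CG30033 (both 0.84). For Thor they were CG7384 (0.82), the limostatin gene Lst (0.81) and CG4716 (0.80), and for ImpL2 RpI12 (0.85), CG34215 (0.77) and CG16799 (0.75).

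The rest of the pathway was read from 9 lists that hold 99 measured genes besides the members. In wt, 13 of the 99 rose and 8 fell with age, which is 21.2% of them, beside 23.7% of all genes. In chm/+ 9 rose and 8 fell, which is 17.2%, beside 16.0% of all genes. These shares lie near those of the whole table. Within the last 10 columns alone, 2 of these 21 calls in wt (Nep2 and bmm) and 4 of these 17 in chm/+ (Nep2, Sur, sun and AkhR) were kept, all with their sign unchanged, and 8 of the wt changes (AkhR, GABA-B-R2, Gbp2, Lip4, Lst, Sur, mth and tobi) and 2 of those in chm/+ (Fas2 and Nep3) were more than 1.5 times smaller there; within the first 10 columns, 20 and 14 were kept. None of the 99 was called for a difference between genotypes in the change with age. Between genotypes 1 gene was called higher and 1 lower in chm/+ at each age, which is 2.02% of the 99. Beside this, 1.45% of all genes were called in young and 1.95% in midlife heads, so these counts are no result about the lists.

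Among genes described as foxo targets, 3 of 8 rose and 2 fell in wt, and 2 rose and 1 fell in chm/+. The list does not separate targets that foxo raises from those it lowers, so these counts give no direction of foxo activity. The triglyceride lipase gene bmm (brummer) rose from 4685 ± 1118 (SD, n = 5) to 9078 ± 1540 (SD, n = 4) in wt heads, a log2 change of 0.97 (limma, adjusted p = 0.000261), and by 0.73 in chm/+ (adjusted p = 0.00188). The sestrin gene Sesn, which restrains TOR, rose by 0.29 and 0.27 (adjusted p = 0.00308 and 0.00342). The lipase gene Lip4 rose in wt by 0.96 (adjusted p = 0.00250) and changed by 0.09 in chm/+, with the difference between these at -0.86 (adjusted p = 0.412). tobi, an alpha-glucosidase gene induced by the brain insulin-like peptides, fell by 1.26 in wt and fell by 1.35 in chm/+ on the log2 scale (adjusted p = 0.00768 and 0.00287). The changes of tobi within the last 10 columns were -0.59 and -1.21 (adjusted p = 0.353 and 0.0506), and that of Lip4 in wt was 0.53 (adjusted p = 0.324). In wt heads tobi went from 30100.1 ± 2529 (SD, n = 5) to 14083 ± 7198 (SD, n = 4). daw, an activin-like ligand gene, fell in wt by 0.54 (adjusted p = 0.0188) and was higher in chm/+ than in wt at midlife by 0.75 (adjusted p = 0.0139). Without 2uo5 the fall of daw was not called (adjusted p = 0.0704), and without 2uo4 or 2uo5 its genotype difference was not, with adjusted p up to 0.0732.

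Upstream of the receptor, 2 of 6 measured genes of secreted or membrane proteins acting on the peptides rose and 1 fell, the same ones in both genotypes. The neprilysin genes Nep2 and Nep4, of proteases that cleave peptides, rose by 0.57 and 0.62 in wt and by 0.52 and 0.50 in chm/+ (limma, adjusted p = 4.06e-05, 0.00127, 5.95e-05 and 0.00442). Nep3 fell by 0.30 in wt and by 0.18 in chm/+ (adjusted p = 0.00198 and 0.0374), and the call in chm/+ was lost without any 1 of 7 libraries of chm/+ (CHMo2, CHMo3, CHMo11, CHMy2, CHMy3, CHMy4 and CHMy12), with adjusted p up to 0.106. Ilp1 was the other insulin-like peptide gene measured, with group means of 25.1 to 28.8 and no call in either genotype; its peptide is known from brain cells of non-feeding stages such as pupae.

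Of 11 genes around phosphoinositide 3-kinase and Akt, Pi3K92E, the catalytic subunit, rose in both genotypes, by 0.28 in wt and 0.36 in chm/+ (limma, adjusted p = 0.00252 and 0.000133). Pdk1, which activates Akt, fell in wt by 0.27 (adjusted p = 0.0291), a call lost without 2uo2, 2uo5, 2uy1 or 2uy5 (adjusted p up to 0.118). Of 8 genes at the receptor and its adaptors, dock, an adaptor that binds InR, fell in wt by 0.33 (adjusted p = 0.00116), and none was called in chm/+. Of 15 genes that act on foxo, none was called in wt and puc, a phosphatase of the JNK pathway, rose in chm/+ by 0.31 (adjusted p = 0.0151, and 0.0525 without CHMo5). The change of puc in wt was 0.25 (limma, adjusted p = 0.0621), and the difference between genotypes was 0.06 (adjusted p = 0.973). Of 24 genes of the TOR branch, mio, part of a complex that activates TOR, rose in wt by 0.26 and in chm/+ by 0.22 (adjusted p = 0.0176 and 0.0397). The calls of mio were lost without 2uo2 in wt (adjusted p = 0.0695) and without any 1 of CHMo2, CHMo3, CHMo11, CHMy4, CHMy11 and CHMy12 in chm/+ (up to 0.123).

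Of 19 genes for receptors, channels and other inputs known from insulin-producing or hormone-releasing cells, 2 rose and 2 fell in wt, and 1 rose and 3 fell in chm/+. The inhibitory receptor genes GABA-B-R2 and 5-HT1A fell by 0.43 and by 0.46 in wt (limma, adjusted p = 0.00408 and 0.000688), and the change of GABA-B-R2 was -0.23 within the last 10 columns (adjusted p = 0.356). In chm/+ they fell by 0.28 and by 0.25 (adjusted p = 0.0381 and 0.0352), calls lost without several single libraries (7 for GABA-B-R2 and 8 for 5-HT1A, adjusted p up to 0.120 and 0.117; CHMo3, CHMo11, CHMo5, CHMy2, CHMy3, CHMy4 and CHMy12 for both and CHMo2 for 5-HT1A alone). Fas2 fell in chm/+ by 0.28 (adjusted p = 0.0143, and 0.0512 without CHMo3), and mth rose in wt by 0.53 (adjusted p = 0.0315), a call lost without 2uo1, 2uo5, 2uy1, 2uy2 or 2uy3 (adjusted p up to 0.0952).

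Sur, the sulfonylurea receptor subunit of potassium channels, was the gene of these lists with a difference between genotypes at both ages. It was lower in chm/+ heads by 0.65 on the log2 scale when young, with 190 to 240 normalized counts in chm/+ and 296 to 386 in wt libraries (limma, adjusted p = 0.000987). Within the last 10 columns this difference was -0.75 and was not called (adjusted p = 0.0760), nor was it with the replicate block (-0.57, adjusted p = 0.264). At midlife it was lower by 0.44 (adjusted p = 0.0419), which 12 of the 20 fits without 1 library did not call (adjusted p up to 0.194). Sur rose with age by 0.53 in chm/+ (adjusted p = 0.00103) and by 0.33 in wt (adjusted p = 0.0378), the last a call lost without 2uo4, 2uo5, 2uy1, 2uy2, 2uy3 or 2uy4, where it was as low as 0.20 (adjusted p up to 0.192).

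Of 9 genes for signals to and from the fat body, 4 rose and 2 fell in wt, and 1 rose and 3 fell in chm/+. The 2 that fell in wt were AkhR and daw, which is also counted among the foxo targets above. Lst, which encodes limostatin, a hormone that limits insulin-like peptide release, rose by 0.68 in wt and 0.64 in chm/+ (limma, adjusted p = 0.0108 and 0.0116). Its changes within the last 10 columns were 0.34 and 0.63 (adjusted p = 0.488 and 0.159). The growth-blocking peptide genes Gbp1 and Gbp2 and the TNF homologue gene egr (eiger) rose in wt by 0.63, 0.78 and 0.85 (adjusted p = 0.00173, 0.00113 and 4.45e-05). Their changes in chm/+ were 0.28, 0.35 and 0.29 (adjusted p = 0.135, 0.101 and 0.0821), and no difference between the genotypes was called (adjusted p = 0.781, 0.763 and 0.269). Within the last 10 columns the wt changes of Gbp1, Gbp2 and egr were 0.43, 0.50 and 0.67 (adjusted p = 0.221, 0.178 and 0.0552). CCHa2, a peptide of fat body and gut that raises Ilp2 and Ilp5 expression in larvae, fell in chm/+ by 0.55 (adjusted p = 0.00265). Young chm/+ heads held more CCHa2 than young wt heads, by 0.49 (adjusted p = 0.0389), a call lost without any 1 of 2uo4 and the young libraries other than CHMy4 (adjusted p up to 0.0993). The receptor gene AkhR fell by 0.55 in chm/+ (adjusted p = 0.00375) and by 0.38 in wt (adjusted p = 0.0473, a call that 13 of the 20 fits without 1 library lost, with adjusted p up to 0.173). sun, which encodes stunted, a ligand that raises insulin-like peptide release, fell in chm/+ by 0.43 (adjusted p = 0.0318), a call lost without CHMo5, CHMo11, CHMo12, CHMy2 or CHMy3 (adjusted p up to 0.101). Beside these changes, the summed level of 4 measured gut markers ran from 20928 to 34582 in young and from 38826 to 60293 in midlife libraries. Most of this sum is Amy-p and LM408 (LManII), while Mal-A1 and Mal-A6 reached only 266 and 107. Of the 4, 2 were called higher with age in each genotype. The summed level of 5 measured haemocyte markers ran from 4935 to 7712 in young and from 10016 to 12108 in midlife wt libraries. Its medians were 7659 and 6976 in young and midlife chm/+ heads. Of the 5, 4 were called higher with age in wt, while in chm/+ none was called higher and 1 was called lower. The part of either list in these changes was not tested.

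**Figure D4:**
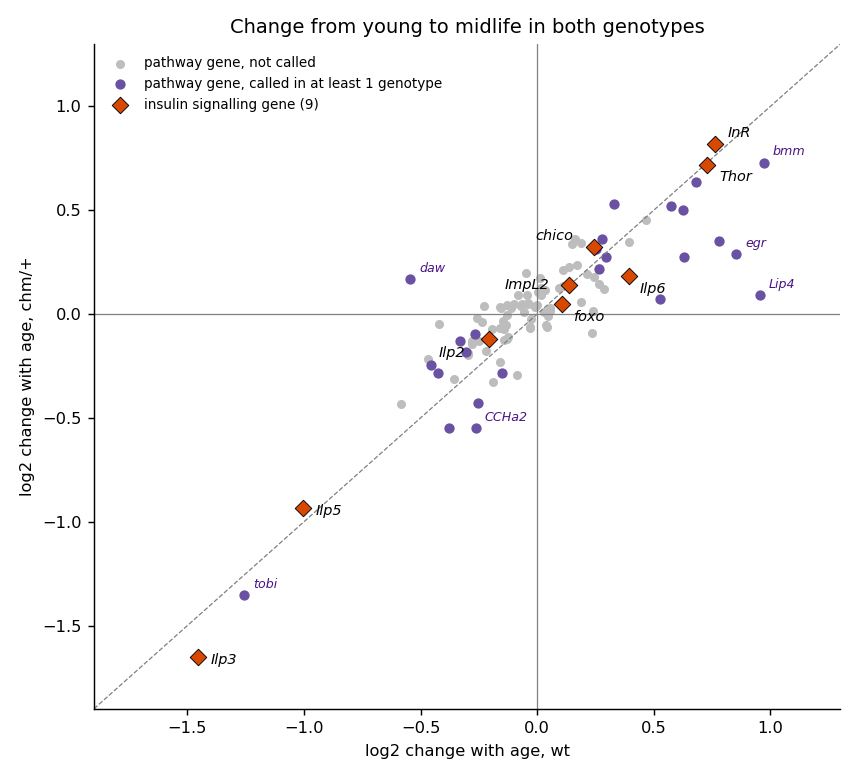
Log2 change from young to midlife in wt (horizontal axis) and chm/+ (vertical axis) for the 9 insulin signalling genes (diamonds) and 99 other pathway genes (circles, purple where called in at least 1 genotype); the dashed line marks equal changes. Ilp3, Ilp5, InR and Thor lie near the line, Lip4 at 0.96 in wt and 0.09 in chm/+, and daw at -0.54 in wt and 0.17 in chm/+.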

How the data were processed

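PolyA RNA of pooled male heads was sequenced as single-end reads of 50 bp, per the labels' protocols. The submitters' processing notes name TopHat2 2.0.5, build BDGP5 and edgeR. The deposited table holds normalized counts (signal), which the authors had scaled to similar totals (27572012 to 30470376 per library). They are not whole numbers: with a tolerance of 0.02, 6.32% to 73.1% of low values per library lay on whole steps, so no count test was run, and depth is unknown. Which counter, strand setting and annotation were used is not given in the sources used here.

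Values were taken as log2(value + 14.5), where the addend is 0.5 CPM at the mean total. A filter of 1 CPM in 4 libraries removed no gene. The 4 group means were estimated together from the 20 libraries in limma 3.58.1 (R 4.3.3, empirical Bayes with trend). Tests were two-sided. A gene was called where its p, adjusted by Benjamini-Hochberg over 9831 genes in each of 5 comparisons, was under 0.05. Correlations and ratios used permutation tests (SciPy 1.17.1; 100000 permutations for correlations, exact for ratios). Columns carry a group but no link to single samples. Exon lengths and overlaps come from the BDGP6.54 annotation, a later build, so no coordinates are given. The script was tested on simulated data. The genes named are all members, the called genes of each pathway list (at most 4 per list and comparison) and the 3 genes most correlated with each member; daw and AkhR in wt fall outside this rule and were chosen after their values were seen. The members, the lists and the alternatives were chosen with earlier results of these data known. The same alternatives for pathway genes were added after the data were seen. Other scalings, addends, filters, column sets, a replicate block and single libraries left out were tried.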

Additional observations from a re-analysis of the deposited data

Results flagged for a closer look

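The young wt library 2uy1 lay apart from its group in Ilp5, at 645.6 normalized counts, where the nearest library of the 5 had 989.8 and the farthest 1125; the gap was 0.718 of the group's range. Of 36 sets of libraries (9 genes in 4 groups) this 1 was so far apart, and chance gives about 1 in 20. Without 2uy1 the fall of Ilp5 in wt remained called.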

How the results depend on the processing

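The calls of Ilp3, Ilp5, InR and Thor with age were kept in both genotypes in each of 20 fits that left out 1 library, under both other scalings and both other addends, with the stricter filter, with the column set as a term, within the first 10 columns alone and without 2uo2, CHMy2 and CHMo12 together. Ilp3 passed the filter of 10 CPM through young chm/+ libraries alone, where it was highest, so that kept call is no support. Within the last 10 columns alone, 1 of the 9 members was called in wt (Ilp5) and 4 in chm/+; fewer libraries entered that fit. Other settings added a member to the 4: chico in both genotypes with the column set as a term (5 members called in each) and in chm/+ within the first 10 columns or without 2uo1, 2uy4 or CHMy1, and Ilp6 in wt within the first 10 columns, without 2uo2, without 2uy5 or without the 3 libraries.

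Counts over all genes moved more. With the filter at 10 CPM, 23 genes were called for the difference between genotypes in the change with age, 73 between genotypes in young and 110 in midlife heads, against 35, 143 and 192. With the column set as a term there were 394 and 357 between genotypes. The first 10 columns alone gave 61 for the difference and 292 in young heads. The last 10 columns alone gave 391 with age in wt, 364 in chm/+, 1 for the difference, 17 in young and 16 in midlife heads. Without 2uo2, CHMy2 and CHMo12 there were 125 in midlife heads. Leaving out 1 library gave 1601 to 2400 genes with age in wt, 1235 to 1737 in chm/+, 17 to 66 for the difference, 91 to 176 in young and 112 to 248 in midlife heads. The causes were not tested.

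Whether sample numbers in the column names pair the libraries is not stated. Within a genotype, same-numbered libraries of the 2 ages had deviations correlated at -0.53 to 0.64 over 8 pairs. Within 1 column set, CHMo2 with CHMy2, CHMo3 with CHMy3, CHMo11 with CHMy11 and CHMo12 with CHMy12 gave 0.64, 0.20, 0.17 and 0.36. Different-numbered pairs within 1 set gave -0.43 (2uo2 with 2uy5) to 0.70 (2uo1 with 2uy5). The ranges overlap, so they cannot decide whether the number pairs libraries. With that number as a replicate block, 1528 genes were called with age in wt and 697 in chm/+, 17 for the difference, 33 in young and 21 in midlife heads; 4 members were called with age in each genotype.

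Signs turned for members that were not called in that comparison. The change of foxo in wt was -0.11 in the last 10 columns. The genotype difference of Ilp3 at midlife was -0.052 in the last 10 columns, and that of Thor when young was 0.025 in the first 10. The difference between genotypes in the change with age was, for Ilp3, 0.47 in the first 10 columns and -0.50 to 0.025 with 1 library left out; for InR, -0.030 in the first 10 columns, -0.19 without the 3 libraries and -0.091 to 0.19 with 1 left out; for Thor, 0.00097 with median-of-ratios scaling, 0.30 in the last 10 columns, 0.077 without the 3 libraries and -0.088 to 0.098 with 1 left out. The genotype difference in the log2 ratio of Ilp3 to Ilp2 at midlife was -0.17 in the last 10 columns and -0.080 to 0.57 with 1 library left out. That of Ilp5 to Ilp2 was -0.010 in the last 10 columns when young, with -0.053 to 0.11 when 1 library was left out, and at midlife -0.15 in the first 10 columns, -0.042 without the 3 libraries and -0.031 to 0.14 with 1 left out. The age differences in both ratios kept their sign within both column sets, where 3 against 3 libraries or fewer cannot give a p under 0.05. Depth is unknown, so counting error could not be given.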
